A study of Danio rerio with 2 samples.

Results

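The parvalbumin family of zebrafish was followed through whole-larva RNA profiles of benzo[a]pyrene exposure. Its members were the 9 genes that the table names pvalb1 to pvalb9, chosen by symbol, out of 22849 genes in all, and each symbol matched 1 gene. Wild-type larvae of the AB strain had been exposed to 1 µM benzo[a]pyrene (BaP), or to 0.1% dimethyl sulfoxide (DMSO) as the solvent control, between 3 and 6 days post fertilization, and were sampled whole at 6 days. BaP is a polycyclic aromatic hydrocarbon of combustion products that activates the aryl hydrocarbon receptor. Each treatment had 1 library, made from total RNA of 4 pooled biological replicates. The labels used here do not state the DMSO content of the BaP medium.

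Parvalbumins are small soluble proteins that bind calcium through EF-hand loops and act as calcium buffers. In fast skeletal muscle of fish they are very abundant and speed relaxation by taking up calcium before the sarcoplasmic reticulum pumps it away. Other parvalbumins occur in neurons and sensory cells: zebrafish pvalb7 marks cerebellar Purkinje cells, and pvalb8 is known from hair cells of the ear and lateral line. In the RefSeq gene table, pvalb8 and pvalb9 also carry the names ocma and ocmb, after oncomodulin, the parvalbumin of mammalian hair cells. Here pvalb1, pvalb2, pvalb3 and pvalb4 were taken as the fast muscle members, and pvalb5, pvalb6, pvalb7, pvalb8 and pvalb9 as the neuronal and other members. A whole-larva library does not show which tissue a transcript came from, so this grouping was not checked by the data, and pvalb3 is its least certain placement. Nor can fewer cells of a type and less RNA per cell be told apart.

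Values are normalized read counts per gene, scaled and rounded to whole numbers by the authors. They are not divided by transcript length, so levels of different members are not compared. The values summed to 11968060 in the BaP library and 13443263 in the DMSO library, from about 22000000 and 19806000 estimated reads. The AhR target cyp1a, whose product oxidizes BaP, had 17859 in the BaP library and 650 in the DMSO library, in the direction that the labels of the libraries call for. With 1 library per treatment no difference has a replicate check. The 95% intervals below come from estimated reads and cover counting error only. Reads carried no molecular identifiers, so even this error may be understated. A gene was counted as higher or lower when its ratio of BaP over DMSO was at least 2-fold in that direction, among 21764 genes whose values summed to at least 10.

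All 9 members passed that filter, and 8 of them lay below a ratio of 1, as did 56.4% of all genes tested. The fast muscle members were lower in the BaP library by 1.45-fold to 3.65-fold. The neuronal and other members ranged from 1.43-fold lower to a ratio of 1.1. At the 2-fold threshold 2 of the 9 members were lower, pvalb1 and pvalb3, where 4.36% of all genes tested were lower. None was higher, against 3.75% of all genes tested. At 1.5-fold 3 members were lower, pvalb4 being the third, against 11.5% of all genes, and none was higher, against 9.12%. The interval lay below 1 for 8 of 9 members, while it did so for 26.8% of all genes. For no member did it lie above 1, as it did for 18.4% of all genes. With the libraries scaled to the same total, the counts of members became 6 below 1 and 1 above 1. The shares of all genes given here are for the values as reported, so they are no background for these rescaled counts. These shares depend on depth, since many reads narrow the interval.

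**Figure D1:**
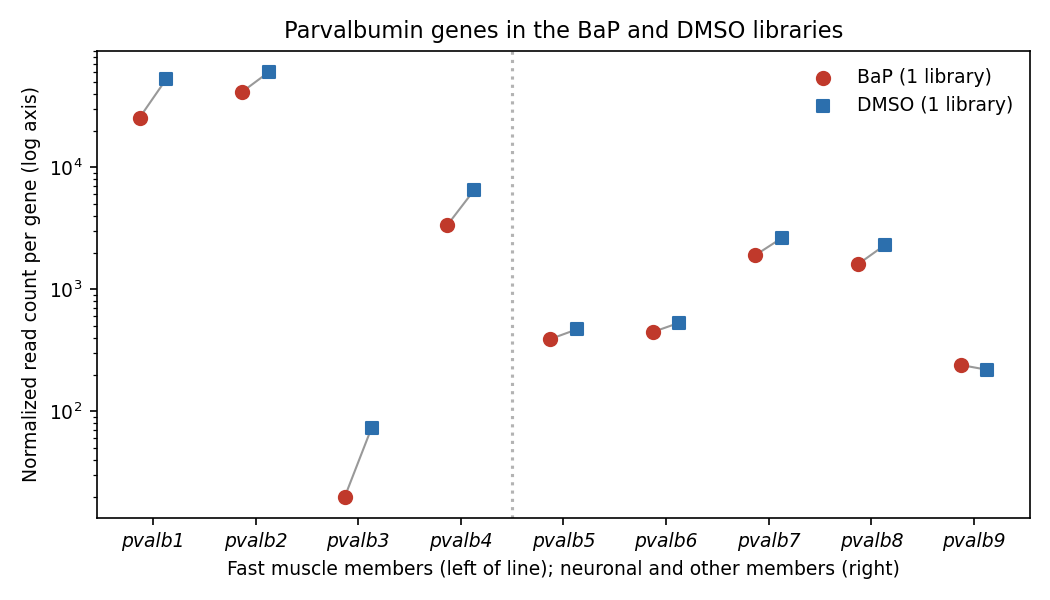
Normalized read count per gene (log axis) of each parvalbumin in the BaP library (circles) and the DMSO library (squares), 1 library each, with a line joining the pair of values. The BaP value is the lower for every member except pvalb9, and the widest gap is that of pvalb3, with 20 in BaP and 73 in DMSO.

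Of the fast muscle members, pvalb1 (ENSDARG00000037789, chromosome 3, 61193890 to 61205711, minus strand) had 25548 normalized reads in the BaP library and 52966 in the DMSO library. It was 2.07-fold lower (95% interval 2.05 to 2.10). Of the genes tested, 3.64% had a lower ratio. The 2-fold call was lost under each of 3 other scalings of the libraries, where the log2 ratio of -1.05 became -0.99, -0.99 and -0.88, and the direction was kept. The gene pvalb2 (ENSDARG00000002768, chromosome 12, 17710425 to 17712498, minus strand) had 41638 in the BaP library and 60551 in the DMSO library. Its difference was the smallest of the 4, at 1.45-fold lower (1.44 to 1.47). In the order of reads per gene pvalb2 stood at place 16 in both libraries.

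For pvalb4 (ENSDARG00000024433, chromosome 3, 61174750 to 61185746, minus strand) the values were 3378 in the BaP library and 6516 in the DMSO library. Its 1.93-fold lower value (1.87 to 1.99) fell just short of the 2-fold threshold that pvalb1 just passed. The gene pvalb3 (ENSDARG00000022817, chromosome 12, 17705218 to 17707517, minus strand) had far fewer reads, with 20 in the BaP library and 73 in the DMSO library. These stand for about 37 and 108 estimated reads. It had the lowest ratio of the family, 3.65-fold lower, with the widest interval (2.46 to 5.62). Summed over the 4 genes the values were 70584 in the BaP library and 120106 in the DMSO library, 1.70-fold lower (1.69 to 1.71). They made up 0.590% of all values in the BaP library and 0.893% in the DMSO library, nearly all of it from pvalb1 and pvalb2.

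Of the neuronal and other members, pvalb7 (ENSDARG00000034705, chromosome 22, 29165330 to 29242347, minus strand) had 1909 in the BaP library and 2645 in the DMSO library. In whole larvae pvalb7 was thus 1.39-fold lower (1.32 to 1.45). The gene pvalb8 (ENSDARG00000037790, chromosome 3, 61154219 to 61162750, minus strand) had 1608 in the BaP library and 2304 in the DMSO library, 1.43-fold lower (1.36 to 1.51). These members lay close together in ratio, and their ratios did not differ beyond counting error (ratio of the ratios 1.03, interval 0.967 to 1.11).

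Smaller differences were found for pvalb5 and pvalb6. The gene pvalb5 (ENSDARG00000032836, chromosome 3, 61208544 to 61218375, minus strand) had 391 in the BaP library and 470 in the DMSO library, 1.2-fold lower (1.08 to 1.34). The values of pvalb6 (ENSDARG00000009311, chromosome 3, 24297482 to 24434905, plus strand) were 447 in the BaP library and 533 in the DMSO library, 1.19-fold lower (1.08 to 1.32). The oncomodulin-like gene pvalb9 (ENSDARG00000071601, chromosome 12, 17695986 to 17698669, minus strand) was the sole member above a ratio of 1. It had 240 in the BaP library and 219 in the DMSO library, and its ratio of 1.1 had an interval that held 1 (0.946 to 1.27). Scaled to the same total, that interval lay above 1 (1.06 to 1.43), and those of pvalb5 and pvalb6 held 1 (0.839 to 1.04 and 0.852 to 1.04). Summed, these 5 genes had 4595 in the BaP library and 6171 in the DMSO library, 1.34-fold lower (1.3 to 1.38).

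**Figure D2:**
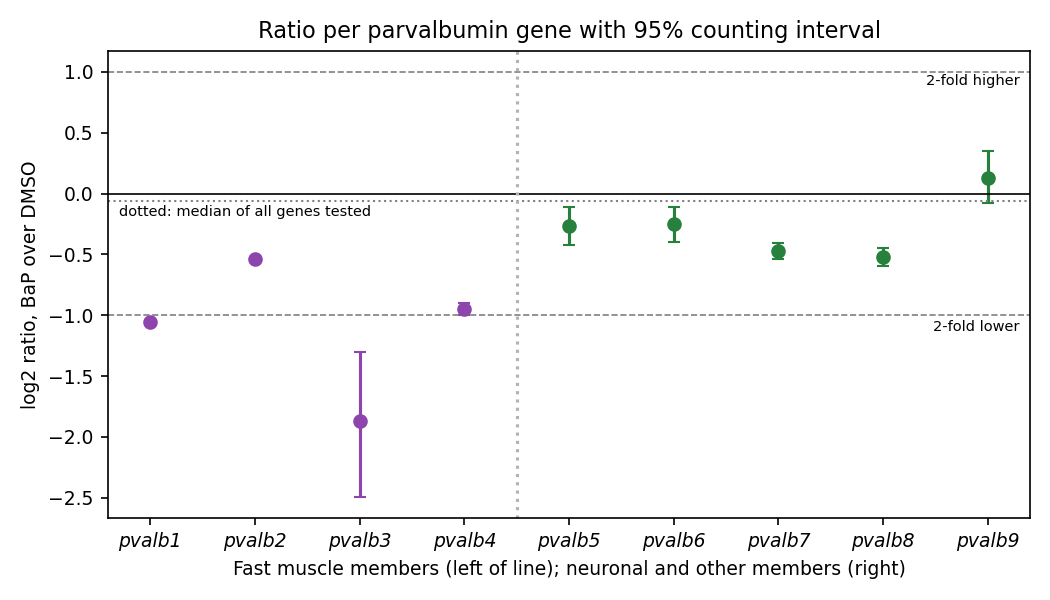
The log2 ratio of BaP over DMSO for each parvalbumin, with its 95% counting interval as a bar, against the 2-fold lines (dashed) and the median of all genes tested (dotted). The fast muscle members pvalb1, pvalb3 and pvalb4 lie near or below the 2-fold lower line, while pvalb2 lies close to pvalb7 and pvalb8.

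Set against each other, the fast muscle members had a median log2 ratio of -1.0 and the neuronal and other members one of -0.27. The median over all genes tested was -0.06. The groups' ratios did not overlap, but they almost met: pvalb2, the highest of the fast muscle members, had a ratio of 0.688, and pvalb8, the lowest of the others, 0.698. The ratio of these ratios was 0.985 with an interval of 0.937 to 1.04, so pvalb2 was not set apart from pvalb8 beyond counting error. Set against pvalb7, pvalb2 had a ratio of the ratios of 0.953, with an interval that just left out 1 (0.909 to 0.998). With pvalb3 placed among the other members, the groups overlapped, and their medians were -0.95 for the fast muscle members and -0.37 for the others. Other pairs, picked after the values were seen, also differed by more than counting error. The ratio of pvalb4 was 0.743 times that of pvalb8 (0.700 to 0.788), and the ratio of pvalb1 was 0.580 times that of pvalb5 (0.522 to 0.644).

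The fast muscle members also differed among themselves. The ratio of pvalb1 was 0.701 times that of pvalb2 (0.691 to 0.712), a quantity that no scaling of the libraries can change. Reads of pvalb1 came to 0.614 per read of pvalb2 in the BaP library and to 0.875 in the DMSO library. The ratio of pvalb3 was 0.398 times that of pvalb2 (0.274 to 0.579). Between pvalb4 and pvalb1 the difference was slight, at 1.07 times (1.04 to 1.11).

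**Figure D3:**
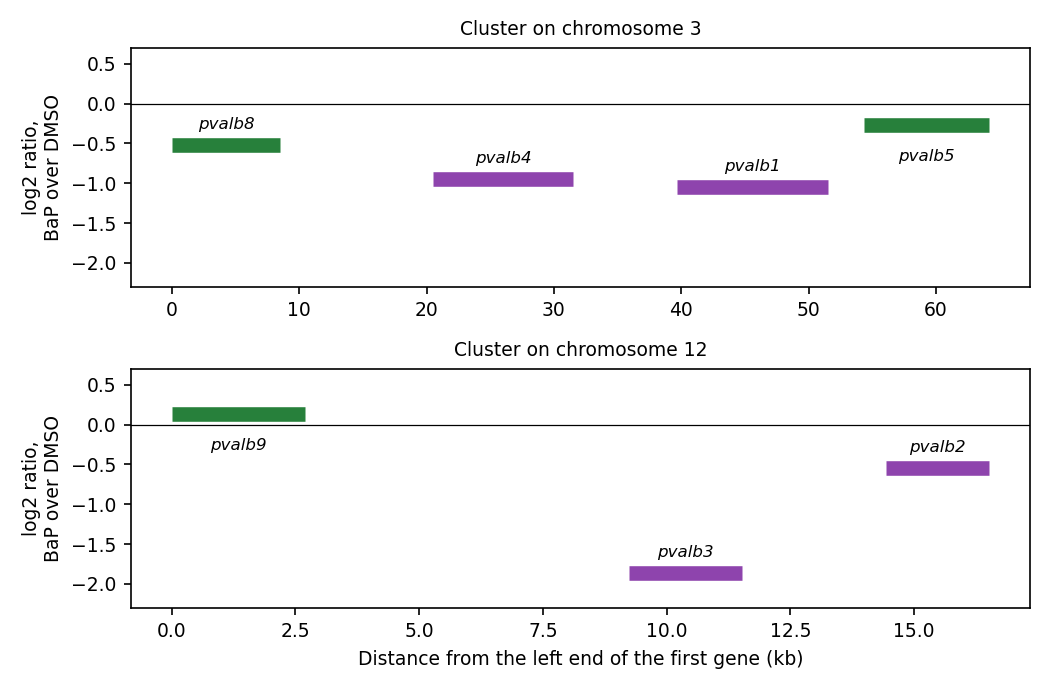
Parvalbumin genes of the chromosome 3 cluster (top) and the chromosome 12 cluster (bottom), drawn to scale as bars over the distance in kb from the left end of the first gene, at the height of their log2 ratio of BaP over DMSO. Fast muscle members (purple) and other members (green) stand side by side in both clusters, with pvalb4 and pvalb1 lowest in the first and pvalb3 lowest in the second.

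Of the 9 genes, 7 lay in a pair of clusters. The file gives coordinates without naming a build. On chromosome 3 the order was pvalb8, pvalb4, pvalb1 and pvalb5, within 64.2 kb. On chromosome 12 it was pvalb9, pvalb3 and pvalb2, within 16.5 kb. No other gene of the table lay inside either cluster, and all 7 genes were on the minus strand. Some neighbours differed in ratio: pvalb1 at 0.482 lay 2.8 kb from pvalb5 at 0.832, and pvalb3 at 0.274 lay 2.9 kb from pvalb2 at 0.688. Others were close, as pvalb4 at 0.518 lay 8.1 kb from pvalb1. Fast muscle members occurred in both clusters, as did members of the other group. The nearest genes outside the first cluster were aimp2, with 861 in BaP and 1022 in DMSO, and lmtk2, with 1313 and 1191 in the same order. On the sides of the second cluster lay ccz1, with 356 in BaP and 347 in DMSO, and CT033796.2, with 1 and 3. Beyond CT033796.2 was bhlha15, with 14 in BaP and 27 in DMSO, a ratio of 0.519 (0.291 to 0.875). The remaining members stood alone, pvalb6 elsewhere on chromosome 3 and pvalb7 on chromosome 22. Both overlapped genes on the opposite strand, csf2rb in the span of pvalb6 (24 in BaP and 33 in DMSO) and ncf4 and baiap2l2b in that of pvalb7 (58 and 30 in BaP, 57 and 37 in DMSO). These had few reads beside the parvalbumins, and the sources used here do not say whether counting took account of the strand.

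Most genes of the muscle lists also lay below a ratio of 1. All 26 genes of a list of fast muscle contractile proteins lay below a ratio of 1, against 56.4% of all genes tested. Of the 26 genes, 5 were at least 2-fold lower and none higher, against 4.36% and 3.75% of all genes tested. The median log2 ratio of the list was -0.74. Among the lower genes were acta1b, for a skeletal actin (1556 in BaP, 4014 in DMSO), myl1, for a fast myosin light chain (2575 and 5924), and mybpc2b, for a myosin-binding protein (427 and 972). The most abundant genes, a myhz1.1 model (75501 and 96263) and mylpfa (59212 and 81498), differed less, while the abundant mylz3 was lower (21483 and 44002). Under each of 3 other scalings, and without the expression trend, 4 genes were lower, not 5. Against these 26 genes, pvalb3 lay below all of them, pvalb1 had 4 with a lower ratio, pvalb4 had 7, and pvalb2 had 17. Thus pvalb3 lay below the range of the contractile genes, pvalb1 and pvalb4 in its lower part, and pvalb2 in its upper part. Of the other members, pvalb8 had 18 of the 26 genes with a lower ratio, pvalb7 had 19, pvalb5 had 24 and pvalb6 had 25. These also lay within the range of the contractile genes, pvalb8 and pvalb7 close to pvalb2, and only pvalb9 lay above all 26. A place in that range was thus not particular to the fast muscle members. The interval of the pvalb3 ratio (0.178 to 0.406) reached into the range of the contractile genes, whose lowest gene was tnni2a.3 at 0.379. Without the expression trend of the ratio, the contractile median was -0.45. In this pair of libraries the contractile genes and the fast muscle parvalbumins all lay below a ratio of 1. What part the level of muscle transcripts had in the parvalbumin ratios was not tested.

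The slow muscle contractile list had 1 of 16 genes lower and none higher, against 4.36% and 3.75% of all genes tested (median log2 ratio -0.61). Without that trend its median was -0.54, below the -0.45 of the fast muscle contractile list. Of 18 energy enzymes of fast muscle, 4 were lower and none higher (median -0.62, or -0.36 without that trend), among them aldoab, for an aldolase (2188 in BaP, 4888 in DMSO). Calcium release and uptake in muscle was covered by 24 genes, of which 2 were lower and 1 higher (median -0.45, or -0.28 scaled to the same total). The lower genes there encode the reticular calcium store proteins calsequestrin, casq1a (225 in BaP, 475 in DMSO) and casq2 (314 and 659). The pump gene atp2a1, which returns calcium to the reticulum of fast fibres, had 51466 in BaP and 72588 in DMSO, a ratio of 0.709 beside 0.688 for pvalb2. Of 18 myogenic regulator genes 1 was lower, myf6 (70 and 149), and none was higher (median -0.24). A single lower gene in this list, as in the slow muscle list, is near the share of all genes tested. Scaled to the same total, aldoab, casq1a, casq2 and myf6 no longer reached 2-fold. Below a ratio of 1 lay 15 of the 16 slow muscle genes and 13 of the 18 energy enzymes. So did 19 of the 24 calcium genes and 12 of the 18 regulators, against 56.4% of all genes tested. Above it lay 1, 5, 4 and 6 genes, in the order of these lists.

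The lists for the cells of the other members lay closer to the median of all genes (-0.06) than the contractile lists did. Below a ratio of 1 were 11 of 14 Purkinje cell, 15 of 20 hair cell and 8 of 11 GABA neuron genes. So were 5 of 9 olfactory and 16 of 18 general neuron genes, against 56.4% of all genes tested. Of 14 Purkinje cell genes none passed 2-fold in either direction (median log2 ratio -0.20), and pvalb7, at a ratio of 0.722, lay below all 14. The nearest of them were kitlga, with 271 in BaP and 372 in DMSO, and aldoca, an aldolase gene of these cells, with 183 and 250. The intervals of their ratios, 0.644 to 0.825 for kitlga and 0.628 to 0.853 for aldoca, held the ratio of pvalb7. Of 20 hair cell genes 2 were lower and none higher, against 4.36% and 3.75% of all genes tested. Their median was -0.11, though 0.06 with the libraries scaled to the same total. Of these 20 genes, 5 had a lower ratio than pvalb8 and 17 a lower ratio than pvalb9. The lower hair cell genes were tmc2a (37 in BaP, 75 in DMSO) and lhfpl5a (4 and 9), both of the transduction machinery. The interval of the lhfpl5a ratio held 1 (0.146 to 1.28), and tmc2a, at a log2 ratio of -1.02, missed 2-fold under the 3 other scalings (-0.96, -0.96 and -0.85). No gene passed 2-fold among 11 GABA neuron genes (median -0.10), 9 olfactory neuron genes (-0.03) and 18 general neuron genes (-0.18). With the libraries scaled to the same total the first 2 of these medians were above 0, at 0.06 and 0.14, and so was the olfactory one at 0.03 under the trimmed mean of M values and the median of ratios, and at 0.01 without the expression trend.

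**Figure D4:**
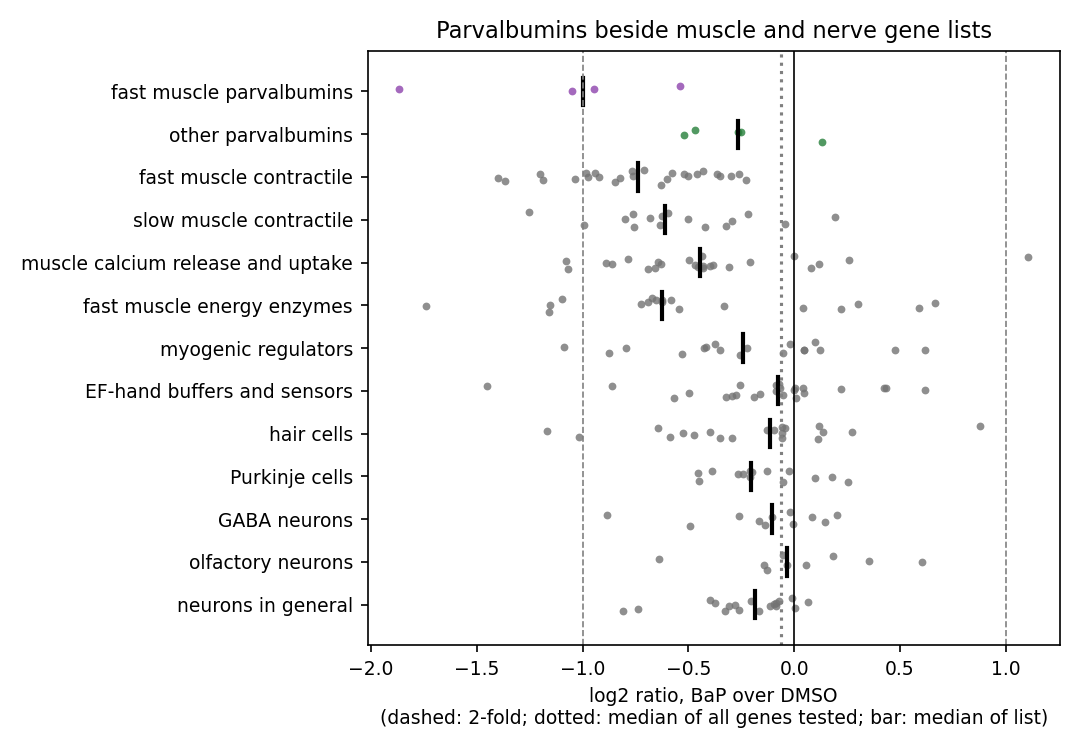
The log2 ratio of BaP over DMSO for each gene (points) of the fast muscle parvalbumins, the other parvalbumins and 11 gene lists, with the median of each as a black bar. The medians of the contractile, energy and calcium lists of muscle lie between those of all genes (dotted) and the fast muscle parvalbumins. The myogenic regulators (median -0.24) lie near the Purkinje cell (-0.20) and general neuron (-0.18) lists. The hair cell, GABA neuron and olfactory neuron lists lie closer to the dotted line.

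Among 24 genes of further calcium buffers and sensors with EF-hands, 1 was lower, near the 4.36% of all genes tested, and none was higher. The lower gene was s100a11 (92 in BaP, 252 in DMSO). The ratios of 3 of the 24 genes lay within the range of the fast muscle parvalbumins. These were s100a11, s100a10a (757 in BaP, 1374 in DMSO) and s100s (428 and 635). The ends of that range are pvalb3, with 0.57% of all genes tested at a lower ratio, and pvalb2, with 12.7%. A count of 3 in 24 is thus near the share of all genes. The median log2 ratio of the list was -0.08, turning to 0.09 with the libraries scaled to the same total. The calbindin gene calb1 had 171 in BaP and 179 in DMSO, and the calretinin genes had 852 and 903 (calb2a) and 765 and 914 (calb2b). All these lists, like the members, were chosen with earlier results of these data known, so their counts are a description.

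The ratio depended on expression. Among the 100 genes with most reads, to which pvalb1 and pvalb2 belong, the median log2 ratio was -0.52, with 18 lower and 3 higher. The running median over neighbouring genes in the order of expression was -0.43 at pvalb1, -0.44 at pvalb2 and -0.25 at pvalb4. At the other members it was between -0.02 and -0.11. Measured from the running median, pvalb2 lay at -0.10, pvalb1 at -0.62, pvalb4 at -0.70 and pvalb3 at -1.76 on the log2 scale. For pvalb1 and pvalb2 these are edge values, since few genes had more reads and most of their neighbours had fewer. Their running medians lay less far below 0 than the -0.52 of the 100 genes with most reads. The distances of pvalb1 and pvalb2 from genes of like expression may thus be overstated. What set this trend was not tested.

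**Figure D5:**
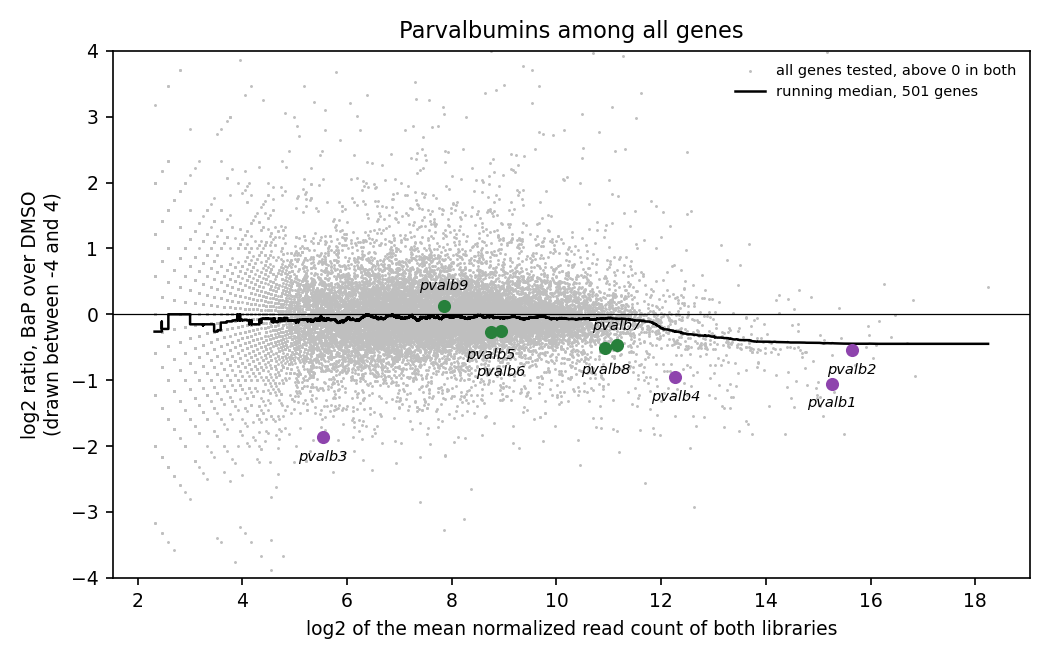
The log2 ratio of BaP over DMSO against the log2 mean normalized read count for all genes tested that were above 0 in both libraries (grey), with the running median (black) and the 9 parvalbumins. The running median bends down among the most abundant genes, where pvalb2 lies close to it and pvalb1 and pvalb4 lie below it.

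The genes whose values were most like those of pvalb2, by distance over the log2 values of the 2 libraries, were ckmb, tpma, slc25a5, atp2a1 and eef2b. Closest was the muscle creatine kinase gene ckmb, with 40366 in BaP and 60429 in DMSO (distance 0.045), next to the tropomyosin gene tpma, with 39540 and 67226 (0.168), and atp2a1 followed at 0.402. Near pvalb3 the first genes with a symbol of their own were pbld, with 22 in BaP and 74 in DMSO (0.133), and itih1, with 23 and 69 (0.209). Likeness over 2 libraries says only that a gene had about the same reads and the same ratio.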

How the data were processed

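Whole-larva RNA was sequenced with 1 library per treatment, from total RNA of 4 pooled biological replicates and 200 ng of input into a stranded mRNA kit, per the labels' protocols. The submitters' processing notes list Trimmomatic 0.38, STAR 2.6.1d, featureCounts 1.6.3 and Subread, and as builds GRCz11 and danRer11, without saying what each was used for. The deposited values are normalized read counts, a score that the authors scaled and rounded to whole numbers. For the scaling, any filter and the treatment of reads shared between similar genes, the method is not given in the sources used.

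Low values alternate in frequency, the pattern left when whole reads are rescaled and then rounded. The scaling constant of each library was estimated by maximum likelihood from values up to 100, as 0.544 (BaP) and 0.679 (DMSO). Values divided by it gave estimated reads, known to about 1 read for low values. For high values they are known less closely, since an error of the constant grows with the value. On 6 columns simulated at known constants the largest error was 0.0008. Each ratio has a 95% Clopper-Pearson interval, taken given the summed reads and widened for rounding. In the simulation 96.1% of 21568 intervals held the true ratio, 199 of 200 changed genes passed 2-fold, and so did 0.86% of unchanged genes, with no variation between animals. The changed genes had been given true ratios beyond 2-fold and drawn from genes of higher values, so most were bound to pass. The simulated intervals used the true constants, so they do not carry the error of estimating them. Intervals of a ratio of ratios are normal approximations on the log scale. A value of 0 was set to 3 reads for the ratio.

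No test was run, since each treatment has 1 library, and a count model would need raw counts. Genes with a sum of at least 10 entered. Members, gene lists and alternatives were chosen with earlier results of these data known. All 9 members are named. From each list the genes named are among those past 2-fold and the most abundant, and genes outside that rule were named after their values were seen, among them calb1, calb2a, calb2b, s100a10a, s100s, kitlga, aldoca, aldoaa, pkma, the atp2a2a model that was not past 2-fold and the genes next to or overlapping a member. Of 198 listed symbols 193 were matched to genes of their own, 4 of them through another name in the reference tables, 4 were not matched, and 1 led to a gene already listed. Alternatives were other scalings, filters, pseudocounts and folds and a correction for expression. The software was matplotlib 3.10.9, statsmodels 0.14.6, pandas 2.3.3, scipy 1.17.1 and numpy 2.4.6 under Python 3.11.15.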

Additional observations from a re-analysis of the deposited data

How the results depend on the processing

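The direction of all 9 members and of both group medians was kept under each alternative run. Scaling moved the log2 ratios by 0.17 (same total), 0.06 (median of ratios) and 0.06 (trimmed mean of M values). In this order the median of the fast muscle members became -0.83, -0.94 and -0.94 in place of -1.0, and their summed log2 ratio -0.60, -0.71 and -0.70 in place of -0.77. The other members' median became -0.10 with the same total. With the trend on expression removed, the fast muscle median was -0.66 and its difference from the other members -0.41 in place of -0.73. That fast muscle median rests in part on pvalb1, whose trend value is an edge value of the running median. With pvalb3 placed among the other members, a choice made after seeing the data, the fast muscle median was -0.95. Under the 3 scalings and the trend removal 1 member, not 2, was at least 2-fold lower, and at 1.5-fold 3 were. The median of the EF-hand list was 0.089 with the same total, in place of -0.08. Over all genes, 817 were at least 2-fold higher and 948 lower. The split was 1120 and 647 with the same total, 882 and 787 under the median of ratios, 893 and 784 under the trimmed mean of M values, 925 and 712 without the trend, 1031 and 1206 without the filter, and 552 and 497 for sums of at least 50. At 1.5-fold it was 1984 and 2501. The alternatives gave 146 values of single members, list medians and the count of lower fast muscle contractile genes. Of these, 118 stayed within their counting interval or within 1.5 times. Of the others, 27 moved further and 1 reversed, the EF-hand median. The filters could not change the ratio of a member, since all 9 members passed them. Nor could leaving out the filter change a list median, since every matched gene of the lists had passed it. Part of the 118 was thus fixed in advance. Some of the 118 changed sign, such as the hair cell median of 0.06 with the same total. Under that scaling pvalb3 and pvalb9 were the only members that stayed.

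Values per kilobase were not run, because no transcript lengths were used here. No paired analysis was possible because each treatment has 1 library, and for the same reason no replicate was left out. Depth limits pvalb3, whose estimated reads number 37 in BaP and 108 in DMSO. Whether the interval of pvalb9 held 1 depended on the scaling (0.946 to 1.27 as reported, 1.06 to 1.43 with the same total).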

Other observations

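Within the muscle lists, some paralogs of an enzyme lay on opposite sides of equality. These were picked after their values were seen. The aldolase gene aldoab had 2188 in the BaP library and 4888 in the DMSO library, while its paralog aldoaa had 6572 in BaP and 4140 in DMSO. The pyruvate kinase genes differed in the same manner, with 1001 in BaP and 3344 in DMSO for pkmb, against 2657 in BaP and 1764 in DMSO for pkma. The 95% counting intervals of the ratios were 0.431 to 0.465 for aldoab and 1.54 to 1.64 for aldoaa, and 0.284 to 0.316 for pkmb and 1.44 to 1.58 for pkma. A pair of gene models that share the symbol atp2a2a, for a calcium pump of slow and heart muscle, also diverged. The model ENSDARG00000005122 had 1389 in BaP and 645 in DMSO, and ENSDARG00000029439 had 1375 in BaP and 1812 in DMSO. The sources used here do not say how reads shared between such similar genes were counted.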
